A study of Rattus norvegicus with 15 samples.

Results

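Left ventricles of 5 Sprague-Dawley rats given isoproterenol to induce myocardial ischemia were compared with those of 5 untreated Sprague-Dawley rats, over all tRNA-derived small RNAs (tsRNAs) listed for the series. These are 10 of its 15 libraries, 1 per rat, chosen by their treatment labels. The other 5, from rats on caloric restriction before isoproterenol, enter here only the shared estimate of spread. Isoproterenol is a beta-adrenergic agonist that drives heart rate and contractile force and can injure the myocardium by raising its oxygen demand. The labels give no dose, time after the drug, age or sex, and no vehicle for the controls, which are called untreated. The table names 714 tsRNAs, of which 665 are tRNA-derived fragments (tRF) and 49 are tiRNAs, from 46 isoacceptors (a tRNA type given by amino acid and anticodon) of 20 amino acids.

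Transfer RNAs carry amino acids to the ribosome and read codons through their anticodon. Cut within the anticodon loop, for which angiogenin is the best known nuclease under stress, a tRNA gives a pair of fragments, the tiRNAs. Other cuts give the shorter tRFs. tiRNAs of some tRNAs, those of glycine, glutamate, valine and aspartate among them, have been described in stressed cells, and some tsRNAs repress translation. Cells hold a second set of tRNAs, encoded in the mitochondrial genome, which serve the synthesis of respiratory chain subunits. Heart muscle is rich in mitochondria. The names used here give class, isoacceptor and a serial number but no sequence or position in the tRNA. Fragments of 1 isoacceptor can therefore be nearly identical and are uncertain as single species.

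The listed tsRNAs made up a larger part of the isoproterenol libraries. They held 73.6%, 50.6%, 49.4%, 78.7% and 55.4% of the library total in isoproterenol rats 1 to 5, against 31.3%, 24.2%, 26.7%, 25.2% and 35.7% in control rats 1 to 5. Every isoproterenol library lay above every control library (61.6% ± 13.6 and 28.6% ± 4.77, SD, n = 5 each; two-sided exact permutation p = 0.00794, the smallest that 5 against 5 rats allow). The labels do not say what else the library total counts, or whether reads were sampled or collapsed before counting, and both bear on these percentages and on every CPM value. Each tsRNA is therefore given on 2 scales. CPM is the deposited value, reads per 1000000 of the library total. The listed share is the same value per 1000000 reads of all listed tsRNAs in that library, so it sets a tsRNA against the others. In whole tissue, a lower level in the same cells cannot be told apart from fewer cells of a type that held the fragment, and tsRNAs mark no cell type by which the tissue label could be checked.

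Library totals, recovered from the whole-read steps of the CPM values, were 106082 to 514565 reads in isoproterenol and 269508 to 1128887 reads in control libraries (exact permutation p = 0.222). The smallest were those of isoproterenol rats 3 and 2 and the largest that of control rat 4. The median tsRNA nevertheless had 4 to 9 reads in isoproterenol libraries and 4.5 to 5 reads in control libraries. In CPM, 1 read was worth 9.43 in isoproterenol rat 3 and 0.886 in control rat 4. A median-of-ratios factor, the level of a typical tsRNA relative to all libraries, was 1.36 ± 0.691 in isoproterenol and 0.590 ± 0.260 in control libraries (exact permutation p = 0.0238). It was highest in isoproterenol rat 3 (2.42) and lowest in control rat 4 (0.175). The part of library totals in the changes below was not tested beyond 2 fits, one with log2 total as a covariate and one without these 2 libraries. Replicate libraries of a group had Pearson r across tsRNAs of 0.687 to 0.896 in isoproterenol and 0.873 to 0.92 in control, and no pair matched within sampling noise.

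For 707 tsRNAs, those that reached 1 CPM in 5 or more libraries, a change was tested. By CPM limma called 251 higher (35.5%) and 88 lower (12.4%) in isoproterenol ventricles at an adjusted p under 0.05. By listed share it called 97 higher (13.7%) and 117 lower (16.5%). On both scales 97 were higher (13.7%) and 88 lower (12.4%), and none was called in opposite directions. The other 154 higher by CPM did not pass by listed share; fragments of Glu-TTC (15), Gly-GCC (12), Arg-ACG (9) and Val-CAC (8) were the most frequent among them. The other 29 lower by listed share did not pass by CPM. The median log2 fold change of all 707 was 1.26 by CPM and 0.30 by listed share, but it was 0.15 by CPM after median-of-ratios scaling. By listed share it turned negative without control rat 4 (-0.04), without isoproterenol rat 3 (-0.05) and with log2 library total as a covariate (-0.57). The CPM split depended on scaling: 74.0% of its calls were higher, against 45.1% after median-of-ratios scaling and 50.9% after TMM scaling. The text below calls a tsRNA higher or lower where it passed in the same direction on both scales, unless a scale is named. Within a library the scales differ only by its listed fraction, so passes on both are not independent tests. Every tsRNA higher by listed share was also higher by CPM, and every tsRNA lower by CPM was also lower by listed share. Higher on both scales is thus the listed-share call (97), and lower on both scales is the CPM call (88).

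The groups did not overlap for 134 tsRNAs above control (19.0%) and 60 below it (8.49%) by CPM, and for 54 above (7.64%) and 91 below (12.9%) by listed share. Of the 97 higher tsRNAs, 50 did not overlap on either scale, and of the 88 lower, 59. The 97 higher tsRNAs, which these same values chose, held 23.4% ± 9.50 of the listed total in isoproterenol and 5.58% ± 2.46 in control ventricles. The 88 lower held 1.67% ± 1.05 in isoproterenol and 25.5% ± 9.29 in control ventricles. With log2 library total as a covariate 61 were higher and 101 lower on both scales. Without isoproterenol rat 3 and control rat 4, 55 were higher and 77 lower.

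**Figure D1:**
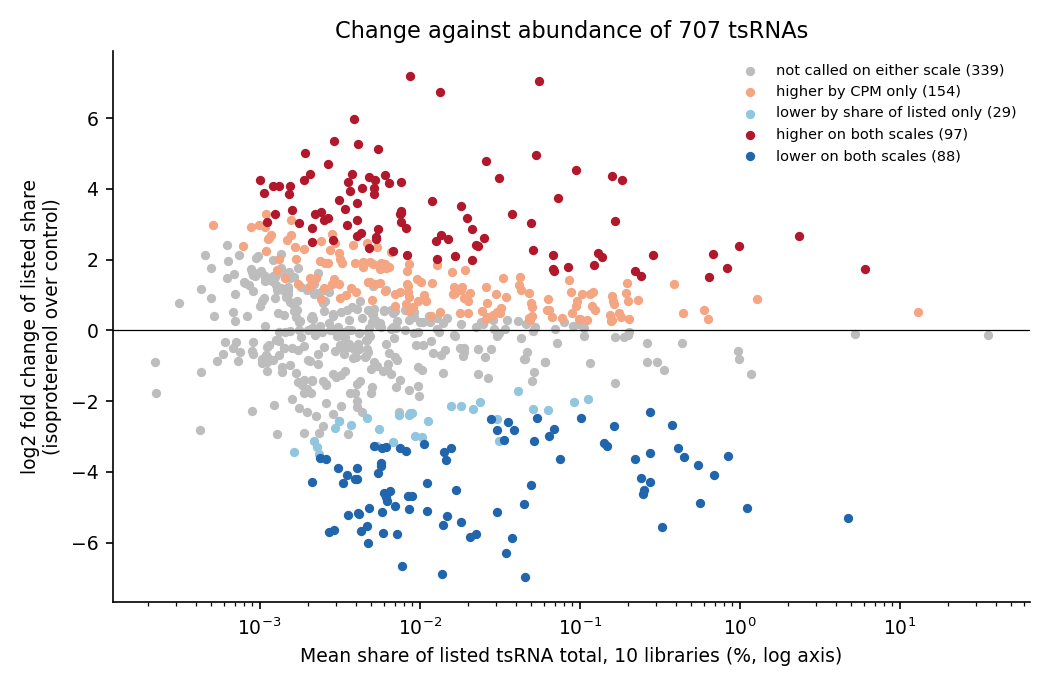
Mean share of the listed total over 10 libraries (percent, log axis) against log2 fold change of the listed share, isoproterenol over control, 1 point per tsRNA. The 97 tsRNAs higher and the 88 lower on both scales both span low and high abundance, while the most abundant, tRF-Gly-GCC-026, lies near 0 at -0.13.

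Among single tsRNAs called higher on both scales, fragments of glycine, histidine, lysine, glutamate and valine tRNAs had the largest gains in mean listed share. tRF-Gly-GCC-025, a fragment of a cytosolic glycine tRNA, had 41151, 23877, 58530.2, 81191 and 80487 CPM in isoproterenol ventricles, against 14386, 5841, 8664, 2881 and 9786 CPM in control ventricles. Its groups did not overlap on either scale. The log2 fold change was 2.83 ± 0.51 (SE) by CPM and 1.74 ± 0.48 by listed share, with adjusted p of 1.42e-05 and 0.00323. It made up 9.40% ± 4.17 of the listed total in isoproterenol and 2.83% ± 1.26 in control ventricles. tRF-Gly-GCC-014 of the same isoacceptor had 18597, 5938, 26451, 52196 and 26698 CPM in isoproterenol ventricles, against 2123, 905, 2159, 742 and 2783 CPM in control ventricles, again with no overlap. Its log2 fold change was 3.77 ± 0.54 (SE) by CPM and 2.68 ± 0.52 by listed share, with adjusted p of 2.33e-07 and 3.41e-05. The call for tRF-Gly-GCC-025 did not pass by CPM after median-of-ratios scaling (1.59, adjusted p = 0.0742) or TMM scaling (1.75, adjusted p = 0.053), or by listed share without isoproterenol rat 3 and control rat 4 (1.33, adjusted p = 0.0671).

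tRF-His-GTG-014 had 4555, 4102, 18410.3, 7806 and 13417 CPM in isoproterenol ventricles, against 937, 867, 920.2, 298 and 904 CPM in control ventricles. All 5 isoproterenol ventricles were above all controls, and the log2 fold change was 3.49 ± 0.50 (SE) by CPM and 2.40 ± 0.53 by listed share, with adjusted p of 2.64e-07 and 0.000243. The lysine fragments tRF-Lys-CTT-023 (3.26 by CPM and 2.17 by listed share) and tRF-Lys-CTT-022 (3.21 by CPM and 2.13 by listed share) did not overlap by CPM but did by listed share. Isoproterenol rat 4 was highest for tRF-Lys-CTT-023, at 18207 CPM, against 2078 to 6095 CPM in the other 4 isoproterenol ventricles and 224 to 1599 CPM in control. The same rat was highest for tRF-Glu-CTC-021, tRF-Val-CAC-028 and tRF-Gly-GCC-014.

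tRF-Val-CAC-028 averaged 6243 ± 4864 CPM in isoproterenol and 1066 ± 800.4 CPM in control ventricles (SD, n = 5 each; log2 fold change 2.61 by CPM and 1.52 by listed share). tRF-Glu-CTC-021 averaged 8133 ± 6962 CPM in isoproterenol and 1375 ± 1218 CPM in control ventricles (2.84 by CPM and 1.75 by listed share). Both rises rested on the scaling and on single libraries. By CPM neither passed after median-of-ratios scaling (adjusted p = 0.12 for valine and 0.078 for glutamate) or TMM scaling (0.0885 and 0.0572, named in the same order). By listed share tRF-Val-CAC-028 lost its call without control rat 2 (adjusted p = 0.0713), control rat 4 (0.106) or isoproterenol rat 4 (0.0958). tRF-Glu-CTC-021 lost its call without the same rats (adjusted p = 0.0732, 0.0778 and 0.0642, in that order). With library total as a covariate the adjusted p by listed share was 0.0541 for tRF-Val-CAC-028 and 0.0874 for tRF-Glu-CTC-021.

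Other large gains were those of single fragments that were scarce in control. tRF-Asn-GTT-021 had 1448, 2149, 3139, 1169 and 663 CPM in isoproterenol ventricles, against 32.9, 21.2, 100.2, 7.97 and 76.0 CPM in control ventricles. tRF-Asp-GTC-039 had 891, 2696, 4647, 992 and 233 CPM in isoproterenol ventricles, against 40.3, 40.1, 77.9, 3.54 and 47.2 CPM in control ventricles, and tRF-Arg-TCG-027 had 702, 2391, 3742, 1038 and 419.8 CPM in isoproterenol ventricles, against 62.2, 51.9, 111, 26.6 and 136 CPM in control ventricles. None of the 3 overlapped between groups on either scale. Log2 fold changes were 5.42 by CPM and 4.37 by listed share for the asparagine fragment (adjusted p = 7.41e-10 by CPM and 9.8e-08 by listed share), 5.28 by CPM and 4.26 by listed share for the aspartate fragment (adjusted p = 1.96e-08 by CPM and 1.8e-06 by listed share) and 4.18 by CPM and 3.10 by listed share for the arginine fragment (adjusted p = 1.57e-07 by CPM and 7.52e-05 by listed share). Isoproterenol rats 2 and 3, whose library totals were smallest, had the highest values of all 3, in CPM.

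A set of fragments was at or near 0 in every control ventricle. tRF-Asn-GTT-022 had 48.3, 102, 179, 107 and 56.4 CPM in isoproterenol ventricles and 0 reads in all 5 control libraries, against 109 reads over the isoproterenol libraries. Set against 3 reads over the control group, the most that a count of 0 allows at 95%, it was at least 66.8-fold higher by CPM and at least 28.8-fold higher by listed share (limma adjusted p = 9.08e-10 by CPM and 1.43e-08 by listed share). tRF-Gly-TCC-050, with 45 reads in isoproterenol and 0 in control libraries, was at least 27.6-fold higher by CPM and 11.9-fold by listed share. tRF-His-GTG-037, with 28 and 0 reads in the same order, was at least 17.2-fold higher by CPM and 7.39-fold by listed share. These limits, and the ratios and intervals given below with read counts, come from pooled reads. Reads of the 5 libraries of a group were set against their pooled totals, so deeper libraries weigh more. They are not ratios of mean CPM, and the limits and intervals cover counting error only, not the spread among rats.

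tRF-Gln-TTG-034 had 37.1, 117, 415, 70.0 and 70.0 CPM in isoproterenol ventricles, against 0, 0, 0, 0 and 2.62 CPM in control ventricles. With 128 reads in isoproterenol and 1 in control libraries, its ratio of pooled reads was 235 by CPM (95% exact counting interval 41.5 to 9373). By listed share this ratio was 101 (17.9 to 4036). tRF-Gly-TCC-049, with 41 and 1 reads in the same order, had a ratio of 75.4 by CPM (12.8 to 3051). tRF-His-GTG-043 was present in 3 control libraries and had 401, 531, 1423, 459.5 and 241 CPM in isoproterenol ventricles, against 0, 2.36, 11.1, 0 and 7.86 CPM in control ventricles. Its groups did not overlap on either scale, which the rule that named it required. The log2 fold change was 7.29 ± 0.67 (SE) by CPM and 7.04 ± 0.82 by listed share, with adjusted p of 6.26e-12 and 4.16e-10. Of the tsRNAs tested, 11 had 0 reads in all control libraries and 5 had 0 reads in all isoproterenol libraries.

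The largest loss was that of a single tiRNA. tiRNA-Ser-GCT-001, of a serine tRNA with an anticodon that the mitochondrial set also uses, had 590.2, 2711, 1423, 767 and 1502 CPM in isoproterenol ventricles, against 16439.8, 19983, 18645, 53100.1 and 18217 CPM in control ventricles. The groups did not overlap on either scale, and the log2 fold change was -4.22 ± 0.51 (SE) by CPM and -5.31 ± 0.54 by listed share, with adjusted p of 6.15e-09 and 8.75e-12. It made up 0.254% ± 0.184 of the listed total in isoproterenol and 9.33% ± 6.69 in control ventricles. Control rat 4 stood apart with 21.1% of its listed total in this tiRNA, against a mean of 6.40% in the other 4 control rats. The serine fragments tRF-Ser-GCT-035 and tRF-Ser-GCT-034 fell with it. tRF-Ser-GCT-035 had 100.2, 789, 226, 107 and 231 CPM in isoproterenol ventricles, against 2881, 2789, 2412, 4258 and 2639 CPM in control ventricles (log2 fold change -3.77 by CPM and -4.87 by listed share). For tRF-Ser-GCT-034 the log2 fold change was -4.47 by CPM and -5.57 by listed share.

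Tryptophan, glutamine and proline fragments were the other abundant losses. tRF-Trp-TCA-001 had 271, 922, 245, 265 and 548 CPM in isoproterenol ventricles, against 6095, 7138, 6582, 5125 and 4791 CPM in control ventricles. Its log2 fold change was -3.91 ± 0.50 (SE) by CPM and -5.01 ± 0.55 by listed share, with adjusted p of 2.71e-08 and 6.25e-11. With tRF-Trp-TCA-002 and tRF-Trp-TCA-003, which fell as well, it made up 0.335% ± 0.253 of the listed total in isoproterenol and 4.42% ± 1.25 in control ventricles. tRF-Gln-TTG-054 had 327, 797, 236, 310.4 and 733 CPM in isoproterenol ventricles, against 2958, 3897, 3536, 5116 and 2225 CPM in control ventricles. It fell with tRF-Gln-TTG-055, at log2 fold changes of -3.00 by CPM and -4.09 by listed share for the first and -2.71 by CPM and -3.81 by listed share for the second. tRF-Pro-TGG-016 averaged 420.4 ± 211 CPM in isoproterenol and 2245 ± 578 CPM in control ventricles (SD, n = 5 each), and tRF-Pro-TGG-017 averaged 626 ± 289 CPM in isoproterenol and 1782 ± 407 CPM in control ventricles. In each of these 7 fragments the highest isoproterenol ventricle was below the lowest control on both scales. Their adjusted p ran from 2.71e-08 to 0.00822 by CPM.

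Other fragments fell close to 0. tRF-Ile-GAT-003 had 14.8, 0, 0, 3.04 and 54.4 CPM in isoproterenol ventricles, against 238, 309, 267, 270.2 and 113 CPM in control ventricles. tRF-His-GTG-031 had 0, 0, 0, 3.04 and 5.83 CPM in isoproterenol ventricles, against 80.5, 82.5, 100.2, 62.0 and 55.0 CPM in control ventricles, and tRF-Lys-TTT-017 had 7.42, 15.6, 0, 3.04 and 11.7 CPM in isoproterenol ventricles, against 161, 249.9, 204, 159 and 157 CPM in control ventricles. None overlapped on either scale, but the rule that named them required this, so it is no further result. For each, 1 to 3 of the 5 isoproterenol libraries held no read. Log2 fold changes were -5.47 by CPM and -6.98 by listed share for the isoleucine, -5.28 by CPM and -6.88 by listed share for the histidine and -4.96 by CPM and -6.30 by listed share for the lysine fragment (adjusted p by listed share 1.02e-08, 6.28e-07 and 1.7e-08). tRF-Pro-TGG-009 followed at -4.54 by CPM and -5.86 by listed share. tRF-Ser-GCT-049 had 2 reads over the isoproterenol and 110 over the control libraries. From pooled reads its level by CPM was 29.9-fold lower (95% exact counting interval 8.08 to 250.0). tRF-Leu-TAA-047 had 1 and 71 reads in the same order, a 38.6-fold lower level by CPM (6.71 to 1546).

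Of the 10 most abundant tsRNAs, 5 were called on both scales, as described above, and 5 were not. tRF-Gly-GCC-026 had 319749, 158386, 101016, 288247 and 226930.0 CPM in isoproterenol ventricles, against 133938, 87672, 89945, 70941 and 156881 CPM in control ventricles. It made up 34.5% ± 9.14 of the listed total in isoproterenol and 37.0% ± 6.58 in control ventricles, and its log2 fold change was 0.97 ± 0.50 (SE) by CPM and -0.13 ± 0.44 by listed share, with adjusted p of 0.104 and 0.861. The sign by CPM was negative after median-of-ratios scaling (-0.28) and TMM scaling (-0.12). By listed share it was positive with library total as a covariate (0.10) and without isoproterenol rat 3 (0.05). tRF-Gly-GCC-015, which made up 15.5% ± 5.97 of the listed total in isoproterenol and 10.5% ± 2.73 in control ventricles, passed by CPM (1.61, adjusted p = 0.00607) and not by listed share (0.52, adjusted p = 0.43). tRF-Gly-GCC-016 did likewise (1.97, adjusted p = 0.00237, and 0.88, adjusted p = 0.249). After median-of-ratios or TMM scaling neither passed by CPM (adjusted p 0.762 and 0.637 for tRF-Gly-GCC-015, 0.427 and 0.301 for tRF-Gly-GCC-016). tRF-Gly-GCC-027 and tiRNA-Lys-CTT-002 passed on neither scale, with log2 fold changes of 0.99 by CPM and -0.10 by listed share for the first and -0.14 by CPM and -1.23 by listed share for the second. By CPM the first passed without isoproterenol rat 4 (1.37, adjusted p = 0.0233) and by edgeR (1.30, adjusted p = 0.0239). By listed share the second passed without isoproterenol rat 1 (adjusted p = 0.046) or 2 (0.0175). It also passed with the covariate (0.0417) and with tRF-Gly-GCC-026 left out of the listed total (0.0495). In the other settings tried neither passed.

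The make-up of the Gly-GCC pool itself differed between the groups. Among Gly-GCC reads, tRF-Gly-GCC-026 held 46.1% ± 6.44 (36.3 to 52.1) in isoproterenol and 61.8% ± 5.54 (54.0 to 68.7) in control ventricles. tRF-Gly-GCC-025 held 13.1% ± 6.57 in isoproterenol and 4.70% ± 1.95 in control ventricles, and tRF-Gly-GCC-014 held 5.73% ± 3.37 in isoproterenol and 0.971% ± 0.352 in control ventricles. The shares of tRF-Gly-GCC-026 and of tRF-Gly-GCC-014 did not overlap between the groups. These 3 shares are given as a description, with no test.

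Summing all fragments of an isoacceptor gives the level of its whole pool. Of 46 sums, 29 were higher (63.0%) and 5 lower (10.9%) by CPM, and 3 were higher (6.52%) and 8 lower (17.4%) by listed share. Median-of-ratios scaling left 13 higher and 12 lower by CPM. The 3 sums higher on both scales were His-GTG, Val-CAC and Arg-TCG. His-GTG summed to 9191, 9805, 30580.1, 13883 and 20990.5 CPM in isoproterenol ventricles, against 2529, 1891, 2223, 969 and 2141 CPM in control ventricles, with log2 fold changes of 3.03 ± 0.38 (SE, adjusted p = 2.08e-07) by CPM and 1.94 ± 0.45 (SE, adjusted p = 0.00086) by listed share. Val-CAC changed by 2.37 ± 0.39 (SE, adjusted p = 1.32e-05) by CPM and 1.28 ± 0.40 (SE, adjusted p = 0.013) by listed share. Arg-TCG changed by 2.83 ± 0.50 (SE, adjusted p = 3.77e-05) by CPM and 1.74 ± 0.61 (SE, adjusted p = 0.03) by listed share.

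The call for His-GTG passed in every alternative tried. By listed share, Val-CAC lost it without control rat 4 (1.00, adjusted p = 0.069). Arg-TCG lost it without control rat 1, 2, 4 or 5 (adjusted p 0.05 to 0.0606), isoproterenol rat 2 (0.102) or isoproterenol rat 3 (0.0991), and with library total as a covariate (0.74, adjusted p = 0.18). Gly-GCC, the largest pool, summed to 613915, 360494, 278219, 620842 and 440621 CPM in isoproterenol ventricles, against 194924, 136333, 151877, 131413 and 250071 CPM in control ventricles. It made up 73.9% ± 10.8 of the listed total in isoproterenol and 59.5% ± 6.95 in control ventricles. Its log2 fold change was 1.40 ± 0.31 (SE, adjusted p = 0.000468) by CPM and 0.30 ± 0.12 (SE, adjusted p = 0.0711) by listed share. After median-of-ratios scaling the CPM value was 0.15 (adjusted p = 0.912). By listed share it passed without control rat 5 (0.37, adjusted p = 0.0315), without isoproterenol rat 3 (0.40, adjusted p = 0.00345) and with the covariate (0.40, adjusted p = 0.023).

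The 5 sums lower on both scales were Ser-GCT, Trp-TCA, Leu-TAA, Ile-GAT and Pro-TGG. Ser-GCT summed to 1076, 4672, 3262, 1329.9 and 2301 CPM in isoproterenol ventricles, against 22147, 25527, 23736, 62434 and 23595 CPM in control ventricles. By listed share the log2 fold changes were -4.81 ± 0.48 (SE, adjusted p = 1.56e-10) for Ser-GCT, -3.79 ± 0.46 (SE, adjusted p = 1.16e-08) for Trp-TCA and -3.19 ± 0.55 (SE, adjusted p = 1.44e-05) for Leu-TAA. They were -3.08 ± 0.62 (SE, adjusted p = 0.000124) for Ile-GAT and -2.65 ± 0.50 (SE, adjusted p = 6.31e-05) for Pro-TGG. By CPM the 5 ran from -3.72 (Ser-GCT) to -1.55 (Pro-TGG), with adjusted p from 2.95e-08 to 0.000731. In every alternative tried these 5 passed on both scales. Lys-TTT (-2.02 ± 0.58 SE, adjusted p = 0.00793), Gln-TTG (-1.74 ± 0.42 SE, adjusted p = 0.00117) and Cys-GCA (-1.49 ± 0.52 SE, adjusted p = 0.03) passed by listed share only. By CPM all 3 passed with library total as a covariate (-1.69 for Lys-TTT, -0.87 for Gln-TTG and -1.23 for Cys-GCA, adjusted p = 5.75e-06, 0.0123 and 0.00023) and after median-of-ratios scaling (-2.17, -1.89 and -1.64 in the same order, adjusted p = 6.92e-06, 0.000673 and 2.02e-05). Without isoproterenol rat 3 and control rat 4 together, Lys-TTT (-1.32, adjusted p = 0.00263) and Cys-GCA (-1.01, adjusted p = 0.0194) passed by CPM. By listed share Cys-GCA lost its call without control rat 1, 2, 3 or 5 (adjusted p 0.05 to 0.0837) or isoproterenol rat 1, 4 or 5 (0.0529 to 0.0964). By CPM, Lys-TTT passed without control rat 4 (-1.12, adjusted p = 0.0217), isoproterenol rat 2 (-1.15, adjusted p = 0.0413) or isoproterenol rat 3 (-1.13, adjusted p = 0.0317), and Gln-TTG without isoproterenol rat 2 (-0.76, adjusted p = 0.0468).

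**Figure D2:**
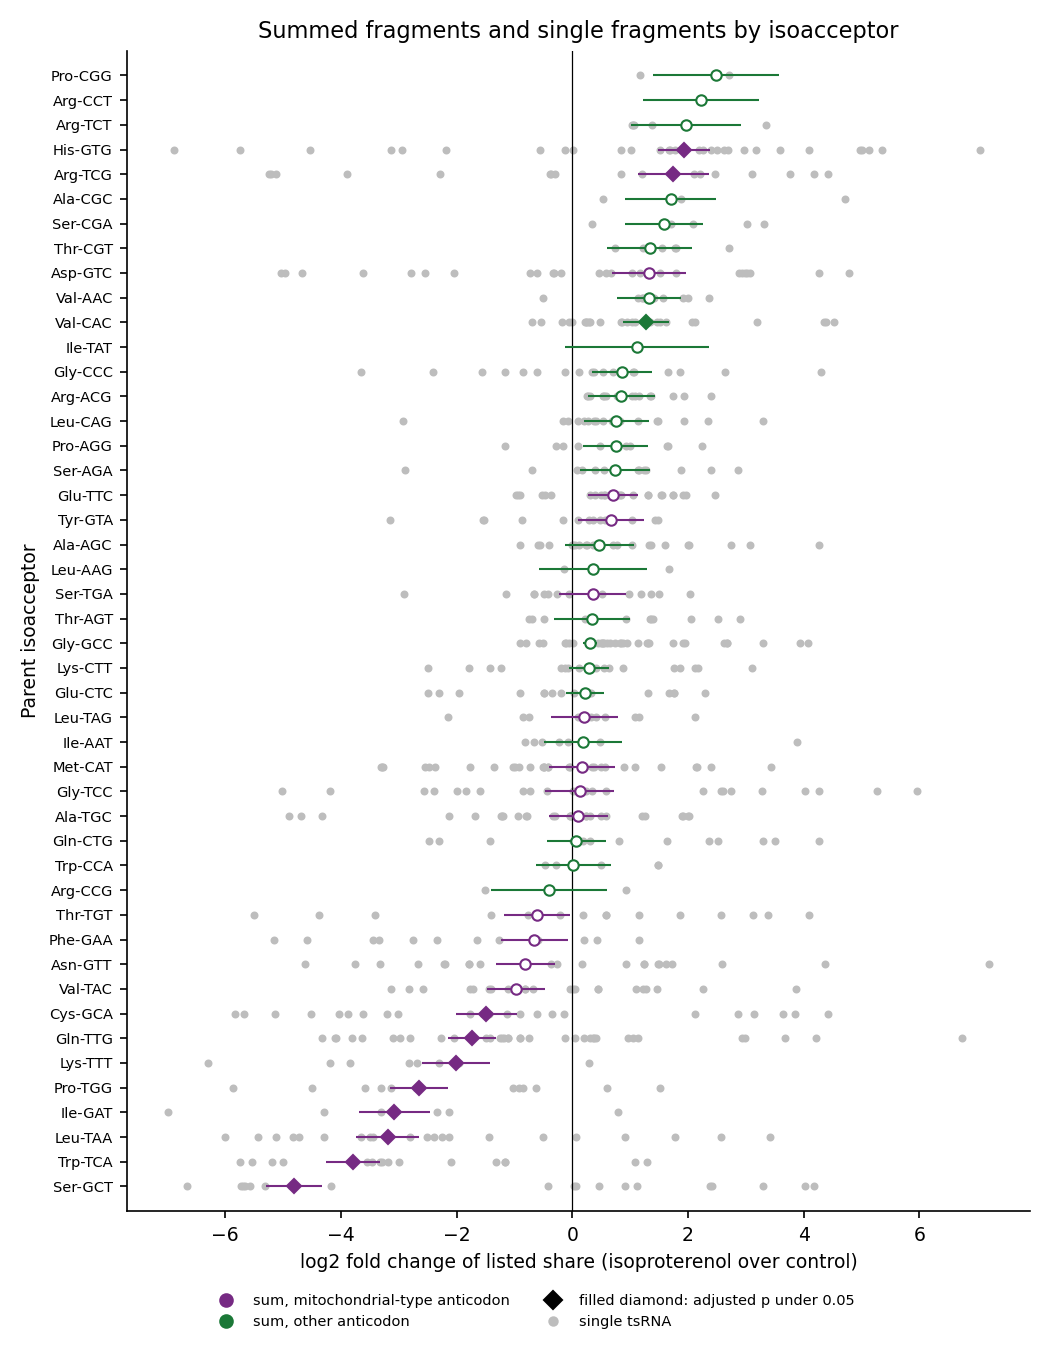
Log2 fold change of the listed share, isoproterenol over control, for 46 isoacceptors: summed fragments with SE (circles, or filled diamonds at an adjusted p under 0.05) and single tsRNAs (grey). Purple marks anticodons that mitochondrial tRNAs use. All 8 sums lower by listed share are purple, as are His-GTG and Arg-TCG among the 3 higher, while single fragments of one isoacceptor lie on both sides of 0.

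All 8 isoacceptors whose sums were lower by listed share have anticodons that the 22 mitochondrial tRNAs also use, here called mitochondrial-type. So do 2 of the 3 whose sums were higher on both scales, His-GTG and Arg-TCG, and 22 of the 46 isoacceptors in all. Of 439 tsRNAs with such an anticodon 435 were tested. On both scales 56 of them were higher (12.9%) and 83 lower (19.1%), beside 13.7% and 12.4% of all tsRNAs. Their median log2 fold change was 0.65 by CPM and -0.33 by listed share. In the alternatives tried it lay below the median of all tsRNAs by CPM (difference -0.71 to -0.35) and by listed share (-0.66 to -0.41), while the median itself ran from -0.37 to 1.09 by CPM and from -1.12 to -0.09 by listed share. Of the 272 tested tsRNAs with other anticodons, 41 were higher (15.1%) and 5 lower (1.84%), with medians of 1.56 by CPM and 0.82 by listed share. Thus 94.3% of the 88 lower and 57.7% of the 97 higher tsRNAs had a mitochondrial-type anticodon, beside 61.5% of those tested. Together the mitochondrial-type tsRNAs held 13.6% ± 7.70 (7.26 to 25.5) of the listed total in isoproterenol and 32.1% ± 7.76 (21.2 to 41.9) in control ventricles. Without Ser-GCT the share was 13.1% ± 7.45 in isoproterenol and 20.5% ± 4.58 in control ventricles, with ranges of 7.11 to 24.9 and 14.6 to 24.9. Summed CPM was 76683 ± 30271 in isoproterenol and 89166 ± 10801 in control ventricles for mitochondrial-type anticodons. For other anticodons it was 538861 ± 158484 in isoproterenol and 197011 ± 55514 in control ventricles.

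Most mitochondrial-type anticodons also occur among nuclear tRNA genes, so the list does not separate the genomes. RefSeq annotation of the rat (assembly GRCr8) holds 766 nuclear tRNA genes. It has one for 44 of the 46 isoacceptors and none for Trp-TCA and Ile-GAT; the anticodon TCA occurs there only in a gene named for a stop codon. The mitochondrial tryptophan tRNA carries anticodon TCA and reads UGA, a stop codon in the cytosol, as tryptophan. The nuclear counterparts compared here are Trp-CCA, with 7 genes, and Ile-AAT, with 9. Ile-TAT, with 3 nuclear genes, has 1 listed fragment (mean 7.10 CPM in isoproterenol and 1.39 CPM in control ventricles) and was not compared. Trp-TCA summed to 1414, 4563, 1640.2, 1519 and 4114 CPM in isoproterenol ventricles, against 18087, 18017, 17183, 10454 and 13141 CPM in control ventricles, and the groups did not overlap. Trp-CCA summed to 163, 477, 801, 137 and 128 CPM in isoproterenol ventricles, against 117, 113, 189, 54.0 and 173 CPM in control ventricles, with overlap (log2 fold change by CPM 1.10 ± 0.53 SE, adjusted p = 0.0605). Ile-GAT summed to 74.2, 164, 84.8, 66.9 and 95.2 CPM in isoproterenol ventricles, against 439, 408, 423, 379 and 231 CPM in control ventricles, with no overlap. Ile-AAT summed to 241, 344, 801, 155 and 157 CPM in isoproterenol ventricles, against 212, 129.7, 200.4, 16.8 and 209.7 CPM in control ventricles, again with overlap (log2 fold change by CPM 1.26 ± 0.60 SE, adjusted p = 0.0575).

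Isoacceptors of 1 amino acid were also compared within each library. Trp-TCA over Trp-CCA was 8.66, 9.57, 2.05, 11.1 and 32.1 in isoproterenol ventricles, against 154, 159, 90.8, 193 and 76.0 in control ventricles. Every isoproterenol ratio was below every control ratio. Ile-GAT over Ile-AAT, computed from CPM + 1, was 0.311, 0.479, 0.107, 0.435 and 0.607 in isoproterenol ventricles, against 2.06, 3.13, 2.11, 21.3 and 1.10 in control ventricles, again with no overlap. The mean log2 ratio was lower by 3.81 for tryptophan and by 3.24 for isoleucine (exact permutation p = 0.00794 each, also after adjustment over both). The isoleucine difference was -3.27 without the added 1, a setting chosen after seeing the data. The log2 differences were -4.27 to -3.28 for tryptophan and -3.62 to -2.55 for isoleucine when each rat was left out in turn. Both ratios were chosen after their values had been seen.

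**Figure D3:**
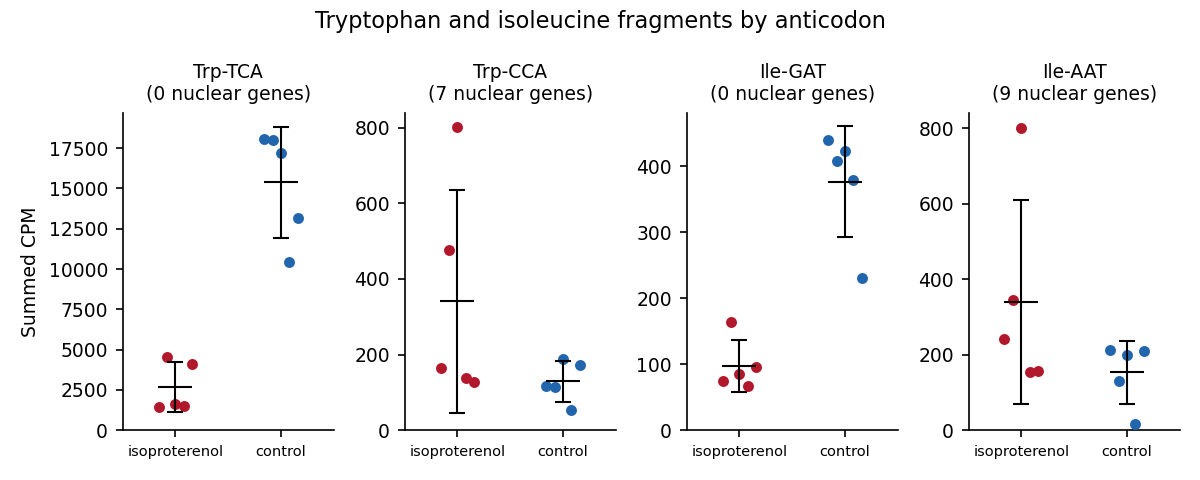
Summed CPM of tryptophan and isoleucine fragments by anticodon, 1 point per rat with mean and SD, n = 5 in each group. Trp-TCA and Ile-GAT, with 0 nuclear genes in RefSeq, do not overlap between isoproterenol (left) and control (right), while Trp-CCA and Ile-AAT do.

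In some isoacceptors fragments went in opposite directions. At least 1 member was higher and at least 1 lower in 17 isoacceptors, and at least 2 each way in 11. These counts stand beside 13.7% higher and 12.4% lower over all tsRNAs. Only higher members were found in 14, only lower members in 5 and neither in 10. His-GTG had 16 higher and 3 lower members of 30, Cys-GCA 6 and 8 of 23, Gln-TTG 4 and 8 of 35, and Asp-GTC 5 and 4 of 26. Arg-TCG had 4 higher and 4 lower members of 17, Leu-TAA 2 and 8 of 21, Ser-GCT 3 and 8 of 19, and Gly-TCC 7 and 2 of 23. Asn-GTT, with 2 and 3 of 22, Thr-TGT, with 2 and 3 of 17, and Glu-CTC, with 2 and 2 of 16, made up the 11, at shares near those of all tsRNAs. All of the 11 but Glu-CTC have a mitochondrial-type anticodon, as do 22 of the 46 isoacceptors in all. Such names do not separate a nuclear from a mitochondrial parent, so members that went opposite ways need not come from the same tRNA. The isoacceptor accounted for 23.8% of the variance of the log2 fold changes by CPM and 22.2% by listed share. The rest lay among fragments of the same isoacceptor name and includes counting error.

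Asparagine shows the split at high level. While tRF-Asn-GTT-021 and tRF-Asn-GTT-022 rose, tRF-Asn-GTT-043 had 52.0, 281, 75.4, 42.6 and 340.1 CPM in isoproterenol ventricles, against 1076, 1523, 1132, 1509 and 1242 CPM in control ventricles. Its log2 fold change was -3.53 ± 0.57 (SE) by CPM and -4.63 ± 0.63 by listed share, with adjusted p of 2.65e-06 and 2.58e-08. The Asn-GTT sum passed on neither scale, at 0.28 ± 0.38 (SE, adjusted p = 0.475) by CPM and -0.81 ± 0.52 (SE, adjusted p = 0.241) by listed share. In serine, tRF-Ser-GCT-058 had 22.3, 85.9, 151, 48.7 and 21.4 CPM in isoproterenol ventricles, against 3.66, 2.36, 0, 0 and 5.24 CPM in control ventricles, above every control in each rat although the Ser-GCT sum fell. In aspartate, tRF-Asp-GTC-040 had 119, 352, 594, 265 and 50.5 CPM in isoproterenol ventricles, against 11.0, 4.71, 11.1, 0 and 2.62 CPM in control ventricles. tRF-Asp-GTC-070 had 3.71, 7.81, 0, 3.04 and 1.94 CPM in isoproterenol ventricles, against 32.9, 61.3, 63.1, 22.1 and 52.4 CPM in control ventricles. Both pairs of groups were free of overlap on both scales, with log2 fold changes of 5.35 by CPM and 4.79 by listed share for tRF-Asp-GTC-040 and -3.67 by CPM and -5.04 by listed share for tRF-Asp-GTC-070.

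Arginine and cysteine had the same form at lower counts. tRF-Arg-TCG-029 rose, with 41 reads over the isoproterenol and 2 over the control libraries. Its CPM ratio of pooled reads was 37.7 (95% exact counting interval 9.80 to 322). tRF-Arg-TCG-024 fell (-3.85 by CPM and -5.24 by listed share). tRF-Cys-GCA-063 rose, with 20 and 1 reads in the same order (CPM ratio 36.8, interval 5.88 to 1525), and tRF-Cys-GCA-046 fell (-4.55 by CPM and -5.83 by listed share). In threonine tRF-Thr-TGT-055 rose (3.93 by CPM and 3.38 by listed share) and tRF-Thr-TGT-044 fell (-4.11 by CPM and -5.50 by listed share), and in glycine tRF-Gly-TCC-017 fell (-3.38 by CPM and -5.02 by listed share) beside the rising tRF-Gly-TCC-050. tRF-Leu-TAA-017, 1 of the 2 higher Leu-TAA members, changed by 2.81 by CPM and 2.57 by listed share. It lost its call by listed share with library total as a covariate (adjusted p = 0.211). It also lost it without control rat 3 (0.157) or 4 (0.162), or isoproterenol rat 2 (0.0694), 3 (0.124) or 5 (0.0546). tRF-Gln-TTG-031, the lowest glutamine member, fell at an adjusted p of 0.0029 by CPM, which was 0.0514 with the covariate.

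**Figure D4:**
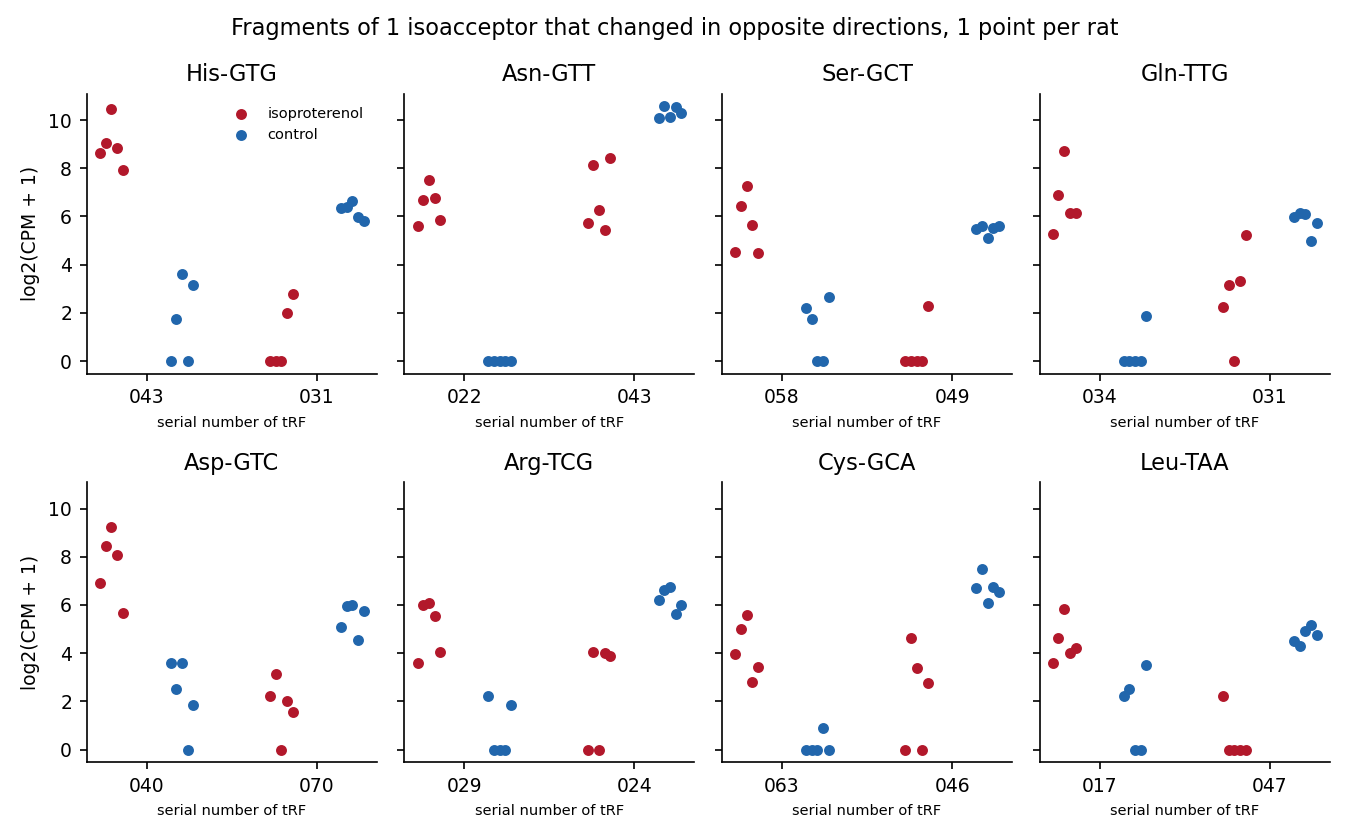
Log2(CPM + 1) of the highest and the lowest member, by fold change, of 8 isoacceptors, isoproterenol left of control, 1 point per rat. In His-GTG the rising fragment 043 and the falling fragment 031 separate the groups in opposite directions, as do 022 and 043 of Asn-GTT.

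Parents whose fragments are often described after cell stress (Gly-GCC, Gly-CCC, Glu-CTC, Lys-CTT, Val-CAC, Val-AAC, His-GTG and Asp-GTC) had 181 tested tsRNAs of 182. Of these 43 were higher (23.8%) and 11 lower (6.08%), beside 13.7% and 12.4% of all tsRNAs. The median log2 fold change was 1.61 by CPM and 0.84 by listed share, beside 1.26 and 0.30 for all, and it lay above that of all in the alternatives tried (difference 0.26 to 0.57 by CPM and 0.34 to 0.74 by listed share). The higher members were 16 of 30 in His-GTG, 7 of 27 in Val-CAC, 6 of 35 in Gly-GCC, 5 of 26 in Asp-GTC, 3 of 19 in Gly-CCC, 3 of 18 in Lys-CTT, 2 of 16 in Glu-CTC and 1 of 10 in Val-AAC. Gly-GCC, Val-CAC and Val-AAC had no lower member. His-GTG and Asp-GTC, with 16 and 5 of the 43 higher members, also have mitochondrial-type anticodons. Their names do not separate a nuclear from a mitochondrial parent. tRF-Val-CAC-023 had 1017, 188, 613, 3429.6 and 1028 CPM in isoproterenol ventricles, against 29.3, 7.07, 14.8, 8.86 and 47.2 CPM in control ventricles (log2 fold change 5.55 by CPM and 4.53 by listed share). tRF-His-GTG-042 had 342, 727, 1235, 414 and 149.6 CPM in isoproterenol ventricles, against 11.0, 2.36, 29.7, 1.77 and 7.86 CPM in control ventricles (5.85 by CPM and 4.96 by listed share), while tRF-His-GTG-028 fell (-4.36 by CPM and -5.75 by listed share). In Glu-CTC, tRF-Glu-CTC-018 and tRF-Glu-CTC-014 were lower by listed share (-2.30 and -2.49), but by CPM tRF-Glu-CTC-018 (-1.20, adjusted p = 0.0459) lost its call without any of 8 rats, control 1 to 5 or isoproterenol 1, 4 or 5 (adjusted p 0.0528 to 0.116). tRF-Glu-CTC-014 (-1.40, adjusted p = 0.0295) lost it without control rat 2 or 3 or isoproterenol rat 1, 4 or 5 (0.0533 to 0.0763).

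Of the 49 tiRNAs 5 were higher (10.2%) and 4 lower (8.16%). Of the 658 tested tRFs 92 were higher (14.0%) and 84 lower (12.8%). Over all tsRNAs 13.7% were higher and 12.4% lower, so neither class stood far from that background in its counts. Median log2 fold changes of tiRNAs were 0.41 by CPM and -0.73 by listed share, and those of tRFs were 1.29 by CPM and 0.34 by listed share. tiRNAs held 4.42% ± 2.01 in isoproterenol and 14.5% ± 6.81 in control ventricles (percent of the listed total, SD, n = 5 each), with no overlap (exact permutation p = 0.00794, adjusted over 22 shares 0.0249). Without tiRNA-Ser-GCT-001 the other 48 held 4.16% ± 1.86 (2.15 to 7.15) in isoproterenol and 5.12% ± 0.585 (4.52 to 5.94) in control ventricles, which overlap. tiRNA-Leu-TAA-002 also fell, with 3.71, 15.6, 0, 6.09 and 9.72 CPM in isoproterenol ventricles, against 76.9, 89.6, 104, 119 and 97.0 CPM in control ventricles. The rising tiRNAs included tiRNA-Val-CAC-001, with 88 reads over the isoproterenol and 3 over the control libraries, and tiRNA-Val-TAC-001 (3.99 by CPM and 3.86 by listed share).

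By amino acid, the shares of histidine, serine, tryptophan, glutamine and proline passed at an exact permutation p of 0.00794 (adjusted over 22 shares 0.0249), and that of valine at 0.0159 (adjusted 0.0437). With the tRF and tiRNA shares, which sum to 100% and so share a p, 8 of 22 passed. Histidine fragments held 2.98% ± 2.03 in isoproterenol and 0.681% ± 0.189 in control ventricles (percent of the listed total, SD, n = 5 each), and valine fragments 2.75% ± 0.832 in isoproterenol and 1.52% ± 0.441 in control ventricles. Serine fragments held 0.871% ± 0.605 in isoproterenol and 11.8% ± 7.47 in control ventricles, and tryptophan fragments 0.536% ± 0.345 in isoproterenol and 5.54% ± 1.57 in control ventricles. Most of the serine share in control was tiRNA-Ser-GCT-001, at 21.1% in control rat 4 and a mean of 6.40% in the other control rats. The Ser-AGA, Ser-CGA and Ser-TGA sums were higher by CPM (log2 fold changes 1.83, 2.66 and 1.435), and none of them passed by listed share. Glutamine fragments held 1.84% ± 0.769 in isoproterenol and 4.70% ± 1.12 in control ventricles, and proline fragments 0.492% ± 0.255 in isoproterenol and 2.15% ± 0.616 in control ventricles. The groups did not overlap for these amino acids, except valine, where the lowest isoproterenol share (1.82%) was below the highest control share (1.88%). Glycine fragments, at 74.7% ± 10.7 in isoproterenol and 60.0% ± 6.96 in control ventricles, did not pass (adjusted p = 0.0794), nor did cysteine (0.0794) or isoleucine (0.0776). Without isoproterenol rat 1 or rat 4 none of the 22 shares passed after adjustment. Of those 8, the class shares then stood at 0.0655 and the others at 0.0582. Without isoproterenol rat 3, 11 passed. The histidine share also lost its call without any one control rat (adjusted p 0.0776 to 0.0998), the valine share without control rat 2, 3, 4 or 5 (0.0776 to 0.109), and the class shares without isoproterenol rat 5 (0.0582). A test of 4 against 5 rats has fewer possible splits, which holds without isoproterenol rat 3 as well. Why the number of passing shares differed was not tested. Differences follow without isoproterenol rat 1, without isoproterenol rat 4 and with all rats, in that order. Histidine differed by 2.74, 2.61 and 2.30 points, and serine by -10.8, -10.8 and -10.9 points. Tryptophan differed by -4.925, -4.92 and -5.01 points, and glutamine by -2.68, -2.64 and -2.86 points. Proline differed by -1.60, -1.60 and -1.66 points, and valine by 1.455, 1.09 and 1.22 points.

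**Figure D5:**
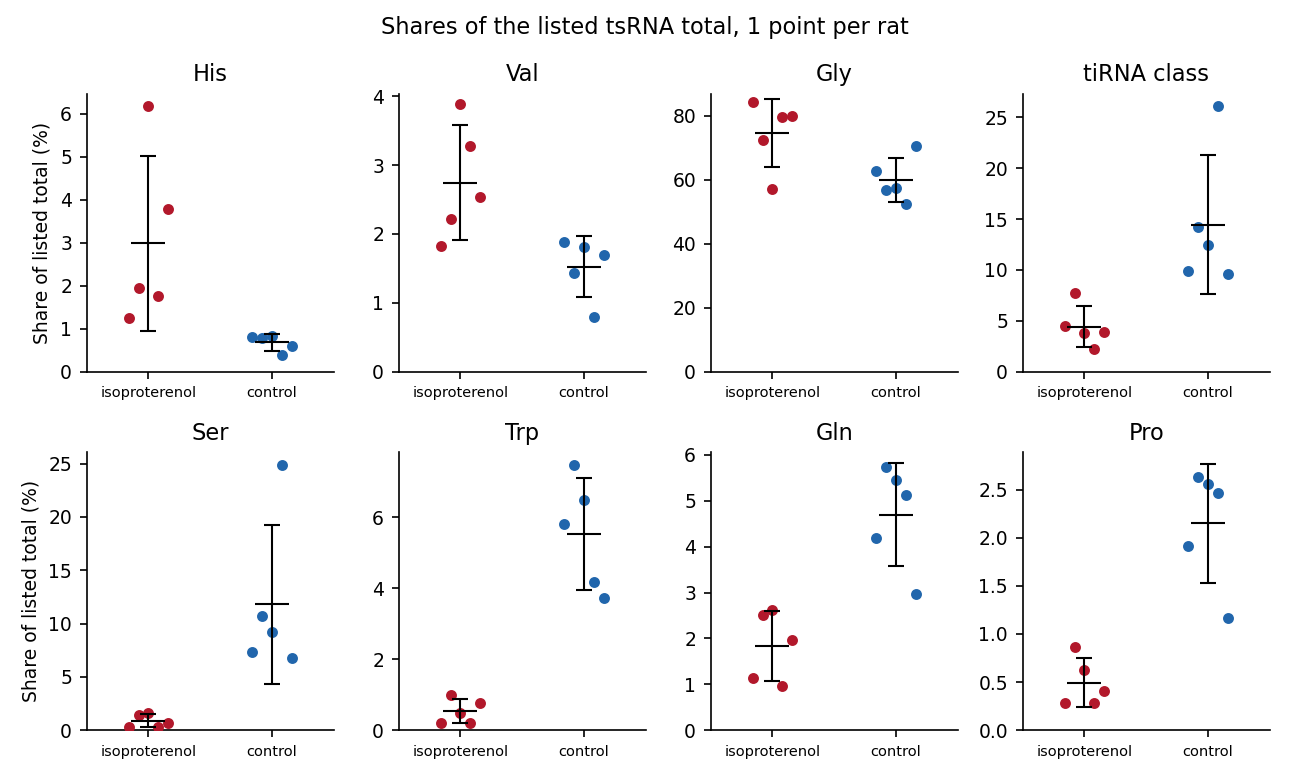
Shares of the listed tsRNA total (percent) by parent amino acid and for the tiRNA class, 1 point per rat with mean and SD, n = 5 in each group. Histidine is higher in all 5 isoproterenol ventricles (left), serine, tryptophan, glutamine and proline are lower in all 5 than in any control (right), and glycine overlaps.

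The 10 most abundant tsRNAs of each library held 77.5% ± 10.5 of its listed total in isoproterenol and 72.4% ± 4.21 in control ventricles, which did not pass (exact permutation p = 0.317). Isoproterenol rat 3 had the lowest value of all 10 libraries, at 61.4%; without it the difference was 9.13 percentage points (exact permutation p = 0.0476). Of the 88 lower tsRNAs, 88, 83, 86, 88 and 87 were below every control by listed share in isoproterenol rats 1 to 5. Of the 97 higher tsRNAs, 75, 84, 95, 82 and 74 were above every control in the same rats. Since the same values chose these tsRNAs, the counts describe the spread among rats and carry no test.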

How the data were processed

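Small RNA libraries were made from total RNA of left ventricle, 1 per rat, after a kit treatment that removes base modifications, and gel selection kept inserts of 14 to 40 nt, per the labels' protocols. The authors deposited CPM for 714 tsRNAs, 1 column per library. cutadapt and edgeR are named without version or role, per the submitters' processing notes; no aligner, tRNA reference or genome build is given in the sources used here. Of the CPM values as deposited, 100% came out as whole reads within 0.001 reads, which gave each library's total and reads. edgeR run on these reads as an alternative called 236 of 347 tsRNAs with library totals. Ratios, intervals and floors given with read counts used reads and totals pooled over the libraries of a group. Intervals and floors cover counting error only.

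The main test was limma 3.58.1 (R 4.3.3, eBayes with trend) on log2(value + 1), which understates the change of low tsRNAs, over tsRNAs with 1 CPM or more in 5 or more of the 15 libraries, 3 groups in 1 model with no block. The same fit was run on CPM, on the share of the listed total times 1000000, and on sums per isoacceptor. Benjamini-Hochberg adjustment ran over all features of a fit, two-sided, with a threshold of 0.05. Single values and shares were compared by exact permutation of 5 against 5 rats.

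tsRNAs were named by this rule. Named were the 10 higher and 10 lower on both scales with the largest difference in mean listed share. Named too were the 6 higher and 6 lower with the largest fold change, at 20 CPM or more in the higher group and with groups apart on both scales. The 10 most abundant were added, and the 2 members of smallest p per list and direction. Added too were the extreme members, at 20 CPM or more in the higher group, of isoacceptors with 2 or more members each way. Such members were called on both scales. Members, lists and rules were chosen with earlier results of these data known. Alternatives were pseudocounts of 0.5 and 5, filters, scalings, a block, a covariate for library total, edgeR 4.0.16 and leaving out each rat.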

Additional observations from a re-analysis of the deposited data

Results flagged for a closer look

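Of 162 groups of 5 rats, 21 had a rat whose value lay far from the other 4 relative to the range of the group. Independent normal values would pass that cutoff about 1 in 20 times. These groups share rats and reads, and in some only 1 rat held any read. The number flagged is therefore not comparable with that rate. All values are percent of the listed total.

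Control rat 4, with the largest library total, held 21.07% in tiRNA-Ser-GCT-001, 26.15% in all tiRNAs, 24.85% in all serine fragments and 1.17% in tRF-Ser-GCT-034, against means of 6.40%, 11.5%, 8.52% and 0.501% in the other 4 control rats, named in the same order. It was also the only control with a read of tRF-Cys-GCA-063 (0.0003515%). Control rat 5 alone held reads of tRF-Gln-TTG-034 and tRF-Gly-TCC-049, at 0.000735% each. Control rat 3 was highest for tRF-His-GTG-042 (0.0111%) and tiRNA-Val-CAC-001 (0.002776%), and control rat 1 for tiRNA-Val-TAC-001 (0.007024%).

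Isoproterenol rat 3, with the smallest library total, was highest for the rising fragments tRF-His-GTG-043 (0.2879%), tRF-Gln-TTG-034 (0.08388%) and tRF-Thr-TGT-055 (0.04385%). Among falling fragments, isoproterenol rat 2 kept most of tRF-Pro-TGG-017 (0.2238%), tRF-Ser-GCT-035 (0.1559%) and tRF-His-GTG-028 (0.007719%). Isoproterenol rat 5 kept most of tRF-Ile-GAT-003 (0.009814%), tRF-Gln-TTG-031 (0.006659%) and tRF-Ser-GCT-049 (0.000701%). tRF-Leu-TAA-047 was seen in isoproterenol rat 1 alone (0.0005043%), and tRF-Gly-TCC-017 was highest in isoproterenol rat 4 (0.001934%).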

How the results depend on the processing

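Of 147 recomputed values of the counts and the shares as a whole, 140 kept their direction, their side of the threshold or a size within 1.5 times. edgeR on recovered reads with listed totals tested fewer tsRNAs (317) and called 120, against 214. With library total as a covariate 20 isoacceptor sums passed by listed share, against 11, and 61 tsRNAs were higher on both scales, against 97, of which 58 were among the 97. Without isoproterenol rat 3 and control rat 4, chosen after seeing the data, 55 were higher, of which 53 were among the 97. Leaving out each rat gave 70 to 102 higher, the lowest without isoproterenol rat 3. It gave 0 (without isoproterenol rat 1 or 4) to 11 (without isoproterenol rat 3) passing shares of amino acids and classes, and a difference of 3.11 to 9.131 points in the share of the 10 most abundant. The causes were not tested. Replicate numbers did not pair the rats: deviations of same-numbered isoproterenol and control libraries had correlations of -0.119 to 0.253. With the replicate number as a block, 345 tsRNAs passed by CPM, 227 by listed share, and 36 and 15 isoacceptor sums. Signs of changes that had not passed turned in some settings. The threonine share was at -0.05931 without tRF-Gly-GCC-026 and -0.3947 on log2 shares, and -0.1387 to 0.08261 points without single rats. The alanine share ran from -0.09087 to 0.5722 points and methionine from -0.04063 to 0.2627 points. By CPM, tRF-Gly-GCC-026 was at -0.2801 and tRF-Gly-GCC-027 at -0.2579 after median-of-ratios scaling, and at -0.1209 and -0.09874 after TMM scaling. tiRNA-Lys-CTT-002 ran from -0.3789 to 0.1337 by CPM without single rats, and stood at 0.1231 without isoproterenol rat 3 and control rat 4 and at 0.1084 by edgeR. By listed share, tRF-Gly-GCC-026 was at 0.09937 with the covariate and -0.2212 to 0.05088 without single rats, and tRF-Gly-GCC-027 at 0.3059 by edgeR, 0.1247 without isoproterenol rat 3 and control rat 4 and -0.4903 to 0.3755 without single rats. Among 3183 recomputed values of single tsRNAs, sums, shares and counts by direction, 3020 kept their call or, for counts, a size within 1.5 times. A call was lost in 93 and gained in 30. The sign turned without a call in 22, and 18 counts moved beyond that size. Depth limits the low tsRNAs most: with a median of 4 to 9 reads per tsRNA, a value of 0 in isoproterenol rat 3 is compatible with up to 3 reads of 9.43 CPM each.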

Other observations

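The sums of some scarce isoacceptors, none of them with a mitochondrial-type anticodon, had large fold changes that passed by CPM and not by listed share. The Arg-CCT sum was 11.1, 85.9, 132, 27.4 and 33.0 CPM in isoproterenol ventricles, against 7.32, 7.07, 11.1, 0 and 7.86 CPM in control ventricles (log2 fold change 2.84 by CPM, limma adjusted p = 0.0021, and 2.22 by listed share, adjusted p = 0.0917). The Pro-CGG sum was at 2.74 by CPM (adjusted p = 0.00409) and 2.48 by listed share (adjusted p = 0.0884). Ser-CGA, with 3 of its 5 fragments higher on both scales, was at 2.66 by CPM and 1.59 by listed share (adjusted p = 0.0769).

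Fragments of one isoacceptor with neighbouring serial numbers had changes closer to each other than other pairs. The median absolute difference in log2 fold change by CPM was 0.96 over 377 neighbouring pairs and 1.51 over 5721 other pairs, and by listed share it was 1.13 and 1.77. The names do not say how serial numbers were given, and pairs share fragments, so this is a description with no test.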
